A study of Mus musculus with 8 samples.

Results

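The hnRNP and SR genes were followed in intestinal crypts of mice with and without a conditional knockout of Tdp-43. Members were all protein-coding genes of the deposited table whose symbol starts with Hnrnp or with Srsf and a digit. There were 31 of 29037 genes, 20 of the hnRNP family and 11 of the SR family. The label Ctrl stands for 4 wild-type littermates and the label cKO for 4 conditional knockout mice, all 8 weeks old, each mouse giving 1 library. The strain, the sex, the part of the gut, the Cre driver and the deleted part of Tardbp, the gene of Tdp-43, are not stated in the sources used here. Values are the authors' normalized counts, which are reads on a gene divided by 1 factor per library, and 21517596 to 29992110 reads lay on genes in each library.

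Heterogeneous nuclear ribonucleoproteins (hnRNPs) coat nascent transcripts and often repress the use of nearby exons. SR proteins carry a domain rich in arginine and serine, bind exonic enhancers and often promote exon use, so the families can oppose each other at the same exon. Many members lower their own level by splicing their transcripts into forms with an early stop codon, which are degraded by nonsense-mediated decay. Tdp-43 belongs to the wider hnRNP group and binds RNA rich in UG.

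Because Tdp-43 binds UG-rich RNA, runs of alternating T and G in the annotated transcripts (GENCODE M21, GRCm38) were located. A run of at least 12 bases was found in 7 of 31 members (22.6%) and in 13.9% of tested protein-coding genes. Introns outside annotated transcripts were not searched, and a run is not a shown binding site. The following 30-base stretches, written 5′ to 3′ as DNA with the bases of the run in capitals, are shown because they lie in members whose group values are given later.
Hnrnpr 3′ untranslated region, chr4:136351605-136351634, plus strand: ctcTGTGTGTGTGTGTGTGTGTGTGTttaa
Hnrnph2 5′ untranslated region, chrX:134603313-134603342, plus strand: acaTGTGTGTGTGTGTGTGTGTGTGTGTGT
Hnrnpul2 retained intron transcript, chr19:8821072-8821101, plus strand: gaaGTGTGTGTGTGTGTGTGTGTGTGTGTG
Hnrnpm retained intron transcript, chr17:33676934-33676963, minus strand: tttgggGTGTGTGTGTGTGTGTGTttaatt
The run of Hnrnph2 was 37 bases in all and that of Hnrnpul2 33, so both go on past the stretch shown. Those of Hnrnpr and Hnrnpm were 23 and 18 bases. The other members with a run were Hnrnpul1 (50 bases), Hnrnpd (43) and Srsf3 (37).

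Promoter windows, the 250 bases before a RefSeq start on GRCm38.p6, were available for 29 of 31 members in 41 windows. CCAAT, the core of the site bound by the factor NF-Y, was sought on both strands (CCAAT or ATTGG). It lay in 48.8% of member windows, in 35.1% of windows of tested protein-coding genes and in 33.8% of all windows. CCGGAAG, a form of the site bound by ETS factors, was sought as CCGGAAG or CTTCCGG and lay in 22.0%, 12.6% and 6.9% of the same sets. Windows of the same gene can overlap and share a match. By gene, CCAAT lay in 16 and CCGGAAG in 6 of the 29 members, and shares by gene were not formed for the other sets. Member windows held a median of 23 CG pairs, against 15 in windows of tested protein-coding genes. The windows of Hnrnpa1, Hnrnpab and Srsf5 are shown since their values across libraries are set side by side later, with matches to either motif in capitals.
Hnrnpa1 promoter, chr15:103240147-103240396, plus strand: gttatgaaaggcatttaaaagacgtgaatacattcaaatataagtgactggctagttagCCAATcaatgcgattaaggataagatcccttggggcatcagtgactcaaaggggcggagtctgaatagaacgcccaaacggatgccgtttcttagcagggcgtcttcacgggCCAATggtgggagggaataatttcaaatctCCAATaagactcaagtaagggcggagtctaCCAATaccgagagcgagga
Hnrnpab promoter, chr11:51606882-51607131, minus strand: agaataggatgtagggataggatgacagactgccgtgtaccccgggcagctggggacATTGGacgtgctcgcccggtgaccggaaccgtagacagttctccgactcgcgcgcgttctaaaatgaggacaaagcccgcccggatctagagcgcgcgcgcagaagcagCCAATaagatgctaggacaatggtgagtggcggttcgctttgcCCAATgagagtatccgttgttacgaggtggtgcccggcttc
Srsf5 promoter, chr12:80945249-80945498, plus strand: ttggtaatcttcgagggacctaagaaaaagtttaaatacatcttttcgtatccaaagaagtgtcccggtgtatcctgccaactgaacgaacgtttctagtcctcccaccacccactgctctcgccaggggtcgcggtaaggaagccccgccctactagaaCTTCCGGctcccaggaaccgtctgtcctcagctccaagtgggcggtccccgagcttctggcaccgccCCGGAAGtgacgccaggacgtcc
CCAAT matched 4 times in the window of Hnrnpa1 and 3 times in that of Hnrnpab. The window of Srsf5 held CCGGAAG matches at 2 places and none of CCAAT. The TATA box was sought as TATAAA or TTTATA and lay in 7.3% of member windows and 7.0% of those of tested protein-coding genes. The E-box CACGTG, which reads the same on either strand, lay in 7.3% and 8.1%. None of these motifs holds another. A match is a description of letters in the window and no shown site.

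All 8 epithelial marker genes were in the table, and their summed level was 399986 to 493565 normalized counts in Ctrl and 393553 to 468684 in cKO. Neutrophil genes summed to 654 to 1523 in Ctrl and 5522 to 17933 in cKO, and 6 of 8 tested were called higher. Calls were 2 of 8 epithelial, 1 of 5 stem cell, 1 of 3 Paneth (Defa17 is not in the table) and 1 of 8 macrophage genes higher, and 1 of 6 goblet and 1 of 7 absorptive genes lower. Summed levels of the stem cell list nevertheless were 2609 to 3361 in Ctrl and 1269.5 to 2626 in cKO, with a median log2 fold change of -0.24. Those of the Paneth list were 49146 to 115680 and 6663 to 78639.6, although its 3 tested genes had a median log2 fold change of 1.76. Limma called 0 T cell, B and plasma cell or stromal genes, whose sums were at most 4066. The value of Tardbp was higher in libraries labelled cKO than in Ctrl (11982 ± 1013 against 5666 ± 772, SD, n = 4 each, limma log2 fold change 1.09, adjusted p = 0.00209). The deleted part is not given, so the whole-gene value checks nothing about the deletion, and directions are between groups as labelled. In such bulk libraries fewer cells of a type and less RNA per cell cannot be told apart.

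Levels between members were compared as Ctrl normalized counts per kilobase of annotated exon, with each exon base of any transcript of a gene counted once. They ran from 3665 ± 291 (SD, n = 4) for Hnrnpa2b1, which represses exons and guides RNA transport, to 31.5 ± 9.1 for Hnrnpu, a chromatin-bound scaffold protein, a ratio of 116. Only Srsf12 was lower. Above 1000 lay 14 of 31 members, and the median was 869.9. The highest were of the A/B type, with Hnrnpab at 3497 ± 374, Hnrnpa0 at 2445 ± 112 and Hnrnpa1 at 2373 ± 125. Srsf5 was the highest SR gene at 2370.4 ± 113 and Srsf2 the second at 1956 ± 174. The order depends on the annotated length, which includes transcripts with a retained intron, and the transcripts present are not known. Hnrnpr (22199 bases) and Hnrnph2 (4369 bases) had similar Ctrl means of 2137 and 2199 normalized counts but stood at 96.3 and 503 per kilobase.

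**Figure D1:**
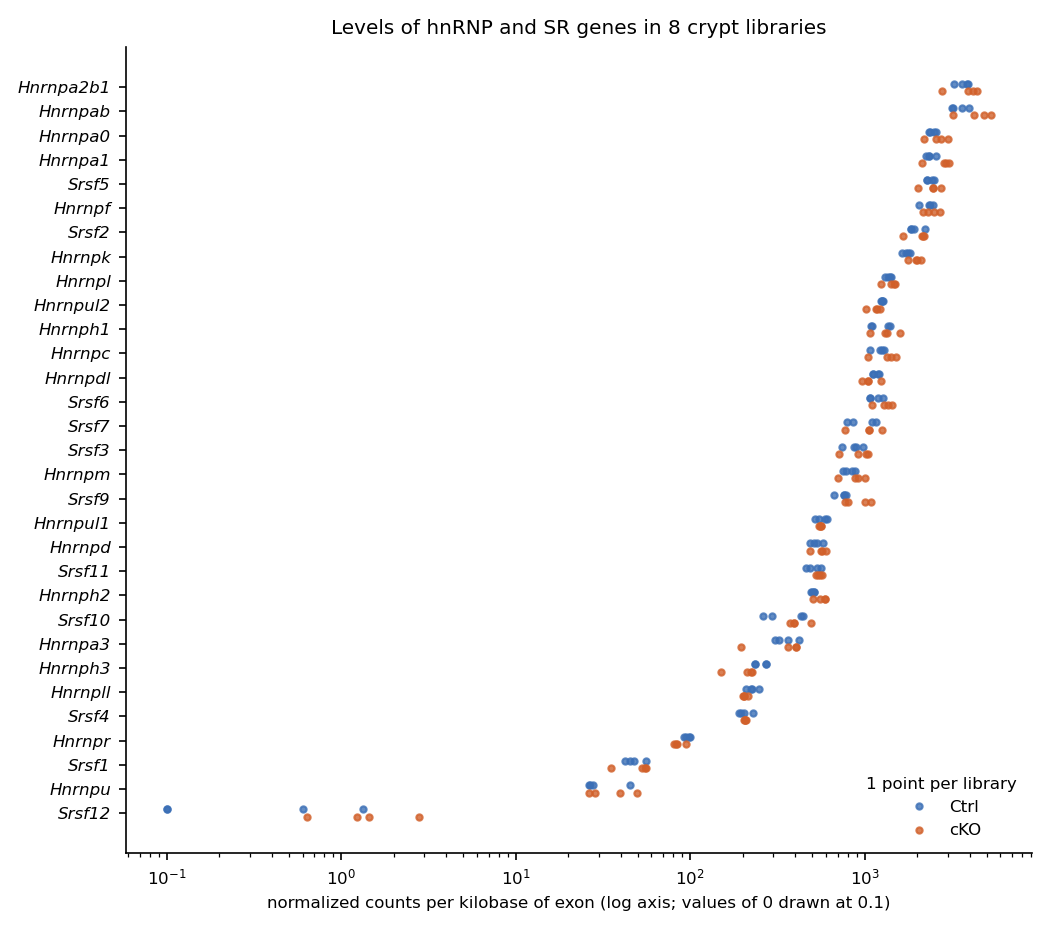
Normalized counts per kilobase of exon on a log axis for 31 members, ordered by the Ctrl mean, with 1 point per library, Ctrl in blue and cKO in orange. Members range from Hnrnpa2b1 at 3665 per kilobase in Ctrl to Srsf12 at 0.48, and the colours lie on top of each other for most members.

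Neighbours in that order often could not be separated: the Ctrl values of 20 of 30 adjacent pairs overlapped. Hnrnpa0, Hnrnpa1, Srsf5 and Hnrnpf, a binder of G-rich RNA, formed such a run at 2445, 2373, 2370.4 and 2312 per kilobase. Breaks without overlap lay below Hnrnpab, Srsf2, Hnrnpk, Hnrnpl, Srsf9, Hnrnph2, Hnrnpa3, Srsf4, Hnrnpr and Hnrnpu. Both families thus held genes near the top of the order. Srsf1, one of the first SR proteins described, was low at 47.7 ± 5.7, with 259, 272, 241 and 318 normalized counts in Ctrl 1 to 4.

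Overlap with other genes could affect some of these levels, since the use of strand in counting is not given. More than 10% of exon bases were shared with another gene in 5 members, namely Srsf4 (43.0%), Hnrnpab (29.1%), Hnrnpf (26.5%), Srsf2 (25.3%) and Hnrnpm (14.7%). More than 10% of the 100-base words of their transcripts also occurred in transcripts of another gene in 8 members, with the most in Hnrnpf (49.4%), Srsf4 (36.3%), Hnrnpa1 (25.9%) and Hnrnpa3 (25.6%). Values of these members are uncertain to that extent. Both shares were small in the low members Srsf1 (1.72% and 0.03%) and Hnrnpu (6.93% and 5.14%). Cox20, which shares 804 exon bases with Hnrnpu on the opposite strand, had a Ctrl mean of 0.80 normalized counts. Genes outside GENCODE M21, which held 99.0% of the genes of the deposited table, were not searched. Loss of reads in counting at Srsf1 and Hnrnpu was not tested.

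No member was called higher or lower in cKO than in Ctrl. Of 31 members, 30 passed the filter of a mean of at least 10, and limma called 0 of 30 at an adjusted p under 0.05. Among all 16536 tested genes 11.7% were called, 5.65% higher and 6.07% lower. At an unadjusted p under 0.05 limma had 3 of 30 members, Hnrnph3, Hnrnpr and Srsf9, against 28.2% of all tested genes. On reads recovered from the values, edgeR, DESeq2 and limma-voom each called 0 of 30 members at an adjusted p under 0.05. Of all tested genes they called 11.6%, 18.1% and 11.3% at that threshold. At an unadjusted p under 0.05 they had 4, 6 and 3 members. The authors' deposited table also had 0 of 31 members with an adjusted p under 0.05, against 10.1% of its genes, and 3 with an unadjusted one. The share of all genes at an unadjusted p is given for the main limma fit alone.

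The intervals of the members were about as narrow as those of other genes at high levels. The median log2 fold change, on log2(value + 1), was 0.07 over the 30 tested members and -0.01 over all tested genes. Values went from -0.34 for Hnrnph3 to 0.31 for Hnrnpab. The 95% confidence interval, unadjusted, lay within 1 log2 unit of 0 for 30 of 30 members and within 0.5 units (1.41-fold) for 24. Among tested genes with a mean of at least 1000, a limit set after the values were seen and met by 26 members, the shares were 89.7% and 60.3%, and 14.6% were called. The bounds farthest from 0 were 0.74 for Hnrnpu and -0.66 for Hnrnph3. The median half-width of the intervals was 0.240 units, against 0.243 among tested genes with a mean of at least 1000 and 0.404 among all tested genes. Differences inside an interval were not detectable with this number of mice.

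**Figure D2:**
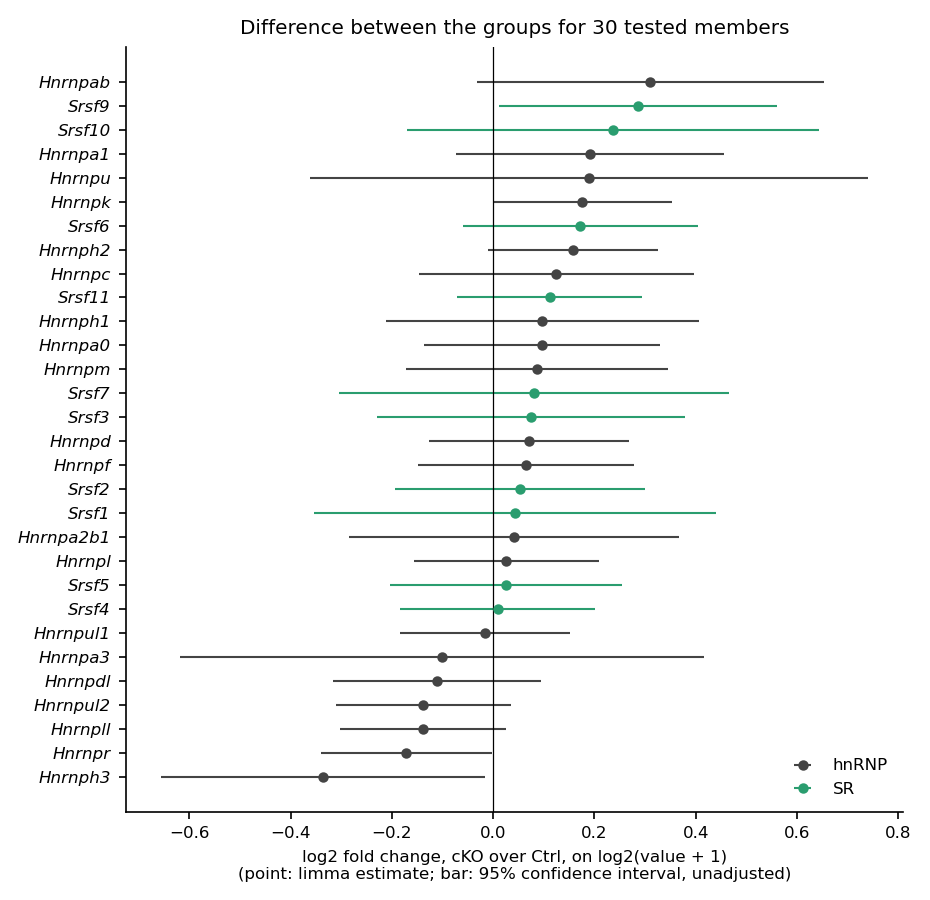
Log2 fold change of cKO over Ctrl on log2(value + 1) for the 30 tested members, with points for the limma estimate and bars for the unadjusted 95% confidence interval, hnRNP genes in grey and SR genes in green. Estimates run from -0.34 for Hnrnph3 to 0.31 for Hnrnpab, and every interval stays within 1 log2 unit of 0.

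More estimates lay above 0 than below it: 23 of 30 (76.7%), against 49.3% of all tested genes. The split was 13 of 20 for hnRNP genes and 10 of 10 for SR genes, whose medians were 0.07 and 0.08. These counts are over estimates, none of which was called. Under library-total scaling 24 of 30 were above 0, with Hnrnpul1 turning from -0.02 to 0.07. With 1 library left out the count ranged from 20 (without Ctrl 4 or cKO 1) to 23. That scaling also put 64.2% of all called genes higher in cKO, against 48.2% with the authors' factors.

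In the A/B type, Hnrnpa2b1 had 25598, 25579.5, 23811 and 21547 normalized counts in Ctrl 1 to 4 and 29020.2, 18358, 27409 and 25846 in cKO 1 to 4. The cKO values lay on both sides of Ctrl, with cKO 2 the lowest of all 8 libraries and cKO 1 the highest (log2 fold change 0.04 ± 0.14, SE, limma adjusted p = 0.875). Hnrnpab, which binds AU-rich RNA, had 11049, 10073, 8840.0 and 8958 in Ctrl and 14702, 8972, 11809 and 13383 in cKO. Apart from cKO 2, all its cKO values exceeded every Ctrl value (0.31 ± 0.15, adjusted p = 0.217). Hnrnpa1, a repressor of exons in many transcripts, had 7119, 7361, 8042 and 7402 in Ctrl and 9601, 6695, 9228 and 8947 in cKO. Its cKO 2 value was the lowest of the 8, and the other cKO values lay above all of Ctrl (0.19 ± 0.12, adjusted p = 0.324).

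The other A/B genes had estimates from -0.11 to 0.10. Hnrnpa0, a binder of AU-rich RNA, was at 0.10 and Hnrnpd, which takes part in the decay of AU-rich mRNA, at 0.07. Its close relative Hnrnpdl stood at -0.11, with 3 of 4 cKO values below all of Ctrl. Hnrnpa3 stood at -0.10 with a wide cKO spread, 1841 ± 534 against 1912 ± 278 in Ctrl. Its cKO 2 value was 1055, and without that library the estimate turned to 0.15.

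Among the H/F genes, which bind runs of G, Hnrnph3 had the lowest estimate of all members. Normalized counts in Ctrl 1 to 4 were 863, 858, 739.9 and 736, followed by 666, 475, 706 and 709 in cKO 1 to 4. All 4 cKO values lay below all 4 Ctrl values, with cKO 2 far the lowest, but the difference was not called (-0.34 ± 0.14, adjusted p = 0.157, and 0.143 to 0.305 over the alternatives). Groups without overlap and lower in cKO were found for 2 of 30 members (6.67%) against 10.3% of all tested genes, and higher in cKO for 0 against 9.54%. Such separations were thus no more frequent among members than among all genes.

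Hnrnph2, the X-linked relative, went the other way at 0.16 ± 0.07 (adjusted p = 0.203). Its Ctrl values of 2241, 2229, 2142 and 2184 were all below cKO 1, 3 and 4, at 2594, 2438 and 2577, while cKO 2 was at 2216. The ratio of Hnrnph3 to Hnrnph2, formed after the values were seen and so given without a test, was 0.385, 0.385, 0.345 and 0.337 in Ctrl and 0.257, 0.214, 0.290 and 0.275 in cKO. The groups did not overlap, and cKO 2 again had the lowest value. Hnrnph3 made up 5.89% ± 0.17 (SD, n = 4) of the summed H/F level per kilobase in Ctrl and 4.48% ± 0.56 in cKO. Hnrnpf and Hnrnph1 had shares of 53.7% and 28.7% in Ctrl and 53.7% and 29.3% in cKO.

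The second member without overlap was Hnrnpul2, a relative of Hnrnpu that acts at DNA breaks in human cells. It had 8907, 8989, 9083 and 8780.2 normalized counts in Ctrl and 8671, 7268, 8355 and 8271 in cKO. The Ctrl values were the most even of the named members (coefficient of variation 1.43%), and the cKO values lay just below them (-0.14 ± 0.08, adjusted p = 0.273). As a share of the summed hnRNP level per kilobase, Hnrnpul2 was 4.91% ± 0.16 in Ctrl and 4.17% ± 0.25 in cKO, and Hnrnph3 0.988% ± 0.057 and 0.731% ± 0.064. These were the 2 of 20 hnRNP genes whose shares did not overlap, both lower in cKO, and none of the 11 SR shares separated the groups. The same 2 genes did not overlap in normalized counts. There 10.3% of all tested genes were without overlap and lower in cKO, so 2 of 20 is near that share. Shares use no library factor but come from the same values, so they are no second support.

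Hnrnpr, a relative of the RNA-binding protein Syncrip, had 2042, 2102, 2215 and 2189.9 normalized counts in Ctrl and 1859, 1845, 2092 and 1803 in cKO. Only cKO 3 reached into the Ctrl range (-0.17 ± 0.08, adjusted p = 0.172). Hnrnpll, which steers exon choice in lymphocytes, stood at -0.14 and its paralog Hnrnpl, a binder of CA repeats, at 0.03. Hnrnpk, which binds C-rich RNA, was above every Ctrl value in 3 of 4 cKO libraries (0.18 ± 0.08, adjusted p = 0.180). Hnrnpc, a binder of U tracts that packages nascent RNA, stood at 0.12, and Hnrnpm, which binds GU-rich RNA, at 0.09.

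**Figure D3:**
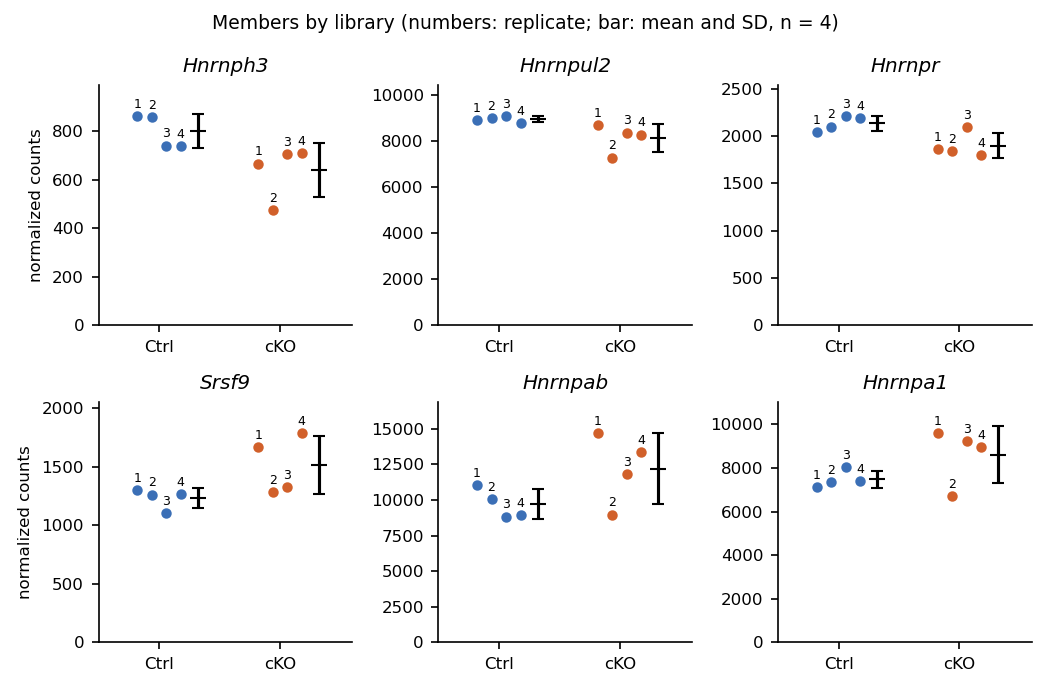
Normalized counts of 6 members in each library, with the replicate number above each point and the mean and SD (n = 4) beside each group. Hnrnph3 and Hnrnpul2 have every cKO value below every Ctrl value, while in Hnrnpab and Hnrnpa1 cKO 2 lies with or below Ctrl and the other cKO libraries above it.

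Among SR genes, Srsf9 had the largest estimate. It had 1297, 1260.3, 1105 and 1267 normalized counts in Ctrl and 1669, 1281, 1326 and 1786 in cKO. The library cKO 2 lay inside the Ctrl range, cKO 3 just above it and cKO 1 and 4 well above (0.29 ± 0.12, adjusted p = 0.161). Srsf5 had 9106, 9058, 9655 and 9993 in Ctrl and 8033, 10973, 9831 and 9861 in cKO (0.03 ± 0.10, adjusted p = 0.893). Here cKO 1 was the lowest and cKO 2 the highest library, the reverse of Hnrnpa1 and Hnrnpa2b1.

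Srsf2, whose protein marks nuclear speckles, had 6538, 5440.2, 5691 and 5476 in Ctrl and 6402, 4911, 6306 and 6469.8 in cKO. Its groups overlapped, and cKO 2 lay far below the other libraries of its group (0.05 ± 0.11, adjusted p = 0.793). Srsf10, which represses splicing when dephosphorylated, had the widest Ctrl spread of the SR genes tested (2498 ± 644, coefficient of variation 25.8%) and an estimate of 0.24 ± 0.18. Srsf6 stood at 0.17 and Srsf11 at 0.11. Srsf7, Srsf3, Srsf1 and Srsf4 lay between 0.01 and 0.08. Srsf12, a relative of Srsf10, had only 6 reads over the Ctrl libraries and 20 over cKO, and it did not pass the filter. Without the filter its limma adjusted p was 0.236.

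The libraries cKO 1 and cKO 2 lay apart from each other in the members. The deviation of each member from its own mean over the 8 libraries had a median of 0.19 in cKO 1 and -0.19 in cKO 2 on the log2 scale. In the other cKO libraries it was 0.09 and 0.07, and in Ctrl 1 to 4 it was 0.05, -0.03, -0.04 and -0.10. Of the 30 members, 16 were lowest in cKO 2, where 16.6% of all tested genes were lowest, and 15 were highest in cKO 1, where 19.0% were. The members' summed reads were 0.783% of reads on genes in cKO 1 and 0.586% in cKO 2.

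The median deviation of 25 proliferation genes was also highest in cKO 1 and lowest in cKO 2. It was 0.47 in cKO 1, -0.50 in cKO 2, 0.22 and 0.31 in cKO 3 and 4, and 0.13, 0.14, -0.34 and -0.44 in Ctrl 1 to 4. Not every gene of the list followed this order: Mcm2 was lowest in Ctrl 4 and Mki67 highest in Ctrl 2. The neutrophil list was at its highest in cKO 2 (17933 normalized counts, against 5522 to 9689 in the other cKO libraries). The 5 crypt stem cell genes were at their lowest there (1269.5, against 2267 to 2626). The sum of the Paneth list was also lowest in cKO 2 (6663, against 18984 to 78639.6) and that of the absorptive list highest (141152, against 49607 to 110192). The part of these lists in the members' values was not tested.

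**Figure D4:**
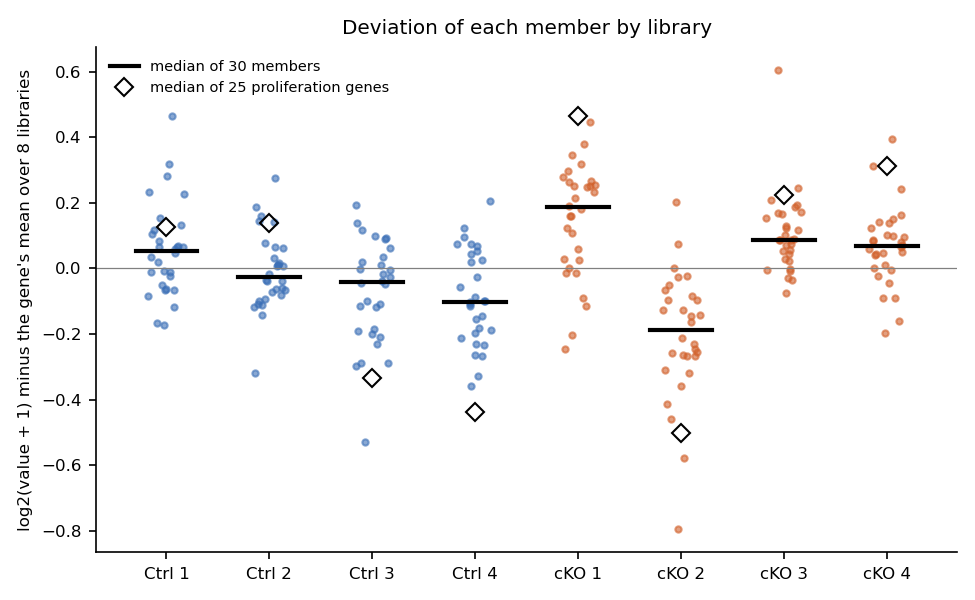
Deviation of each of the 30 tested members from its own mean over 8 libraries, on log2(value + 1), by library, with the median of the members as a bar and the median of 25 proliferation genes as a diamond. Member medians are 0.19 in cKO 1 and -0.19 in cKO 2, where the diamonds also take their highest and lowest places at 0.47 and -0.50.

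Leaving out cKO 2 changed the count of calls. Limma then called 2 of 30 members, both higher: Hnrnpa1 (0.31, adjusted p = 0.0258) and Hnrnpab (0.45, adjusted p = 0.0289). Of all tested genes 8.16% were called higher in that setting and 16.5% in either direction. Without cKO 2 the members' median was 0.19, and 8 of 30 had an unadjusted p under 0.05, a count for which no share of all genes is given. The median moved the other way without cKO 1, to 0.02 with 0 at an unadjusted p under 0.05, and without cKO 3, to 0.03 with 4. The median coefficient of variation of the members was 7.66% in Ctrl, 12.8% in cKO and 5.85% in cKO without cKO 2. It was larger in cKO than in Ctrl for 25 of 30 members (83.3%), and without cKO 2 for 8 (26.7%). The shares were 64% and 51.4% of all tested genes, and 70.6% and 55.6% of those with a mean of at least 1000. The library cKO 2 was singled out because many members were lowest there, so a narrower cKO spread without it follows from that choice. No other library, left out alone, gave a call among members.

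Other splicing genes were counted from lists, read against 5.65% called higher and 6.07% lower. Of 34 tested RNA-binding regulators related to hnRNPs, 2 rose and none fell, with a median log2 fold change of 0.10. Fubp3, a KH-domain protein, had 1289.7, 1337, 1351 and 1407 normalized counts in Ctrl and 1885, 1887, 1768 and 1622 in cKO (0.41 ± 0.08, adjusted p = 0.0134). Rbfox2, which binds GCAUG next to exons, had 1204 ± 65 in Ctrl and 1653 ± 227 in cKO (0.45 ± 0.11, adjusted p = 0.0289). For both, every cKO value was above every Ctrl value. Rbfox2 was no longer called when any 1 Ctrl library or cKO 1 was left out (adjusted p up to 0.083). Mbnl2, a regulator of developmental exons, had the lowest p among those below 0 (-0.17, adjusted p = 0.248).

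Of 30 tested SR-related proteins 1 was called, and the median was 0.03. Srek1ip1, a partner of the SR-related protein Srek1, fell (708 ± 30 in Ctrl and 566 ± 39 in cKO, -0.32 ± 0.09, adjusted p = 0.0452). Its call was lost in several settings, among them no filter on low values, library-total scaling and leaving out any 1 library other than cKO 2 (adjusted p up to 0.121). Scaf4, an SR-like factor that acts in transcription termination, had 0.22 (adjusted p = 0.138). None of 18 kinases, phosphatase regulators and importers of SR proteins was called by limma, with a median of 0.08. At an unadjusted limma p under 0.05 there were 4, against 28.2% of all tested genes. DESeq2 called 2 of the 18 higher, against 9.13% of all tested genes.

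Of 43 tested core spliceosome genes 40 had estimates above 0, against 49.3% of all tested genes, with a median of 0.26. An unadjusted limma p under 0.05 was found for 19, against 28.2% of all tested genes. By adjusted p, 4 rose and none fell. Dhx38, a helicase of the spliceosome, had 1494 ± 79 in Ctrl and 1959 ± 114 in cKO (0.39 ± 0.08, adjusted p = 0.0155). The SF3B subunit Sf3b3 rose by 0.45 ± 0.10 (adjusted p = 0.0195), the GTPase Eftud2 by 0.48 ± 0.11 (0.0273) and the snRNP protein Snrpa1 by 0.62 ± 0.16 (0.0372). Snrnp70, of the U1 particle, was at -0.21 (adjusted p = 0.158). Without cKO 2 limma called 20 of 43, where 8.16% of all tested genes were called higher. Without Ctrl 3, Ctrl 4 or cKO 4 it called 1, where 2.27%, 3.08% and 2.86% were.

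Of 21 genes of nonsense-mediated decay and the exon junction complex, 2 rose, none fell and the median was 0.10. Smg8, which restrains the kinase Smg1, had 596 ± 67 in Ctrl and 841 ± 64 in cKO (0.50 ± 0.11, adjusted p = 0.0203). The release factor Etf1 rose by 0.33 ± 0.08 (0.0300). Dhx34 was at -0.32 (adjusted p = 0.116). Without cKO 2 there were 6 calls, where 8.16% of all tested genes were called higher. Without any 1 of Ctrl 1, Ctrl 3, Ctrl 4, cKO 1 or cKO 4 there were 0, where 2.27% to 3.08% were. Limma called none of 25 proliferation genes, and 3 had an unadjusted p under 0.05, against 28.2% of all tested genes. Their median was 0.25, and 22 were above 0, against 49.3% of all tested genes. DESeq2 called 2 of the 25 higher, against 9.13% of all tested genes.

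**Figure D5:**
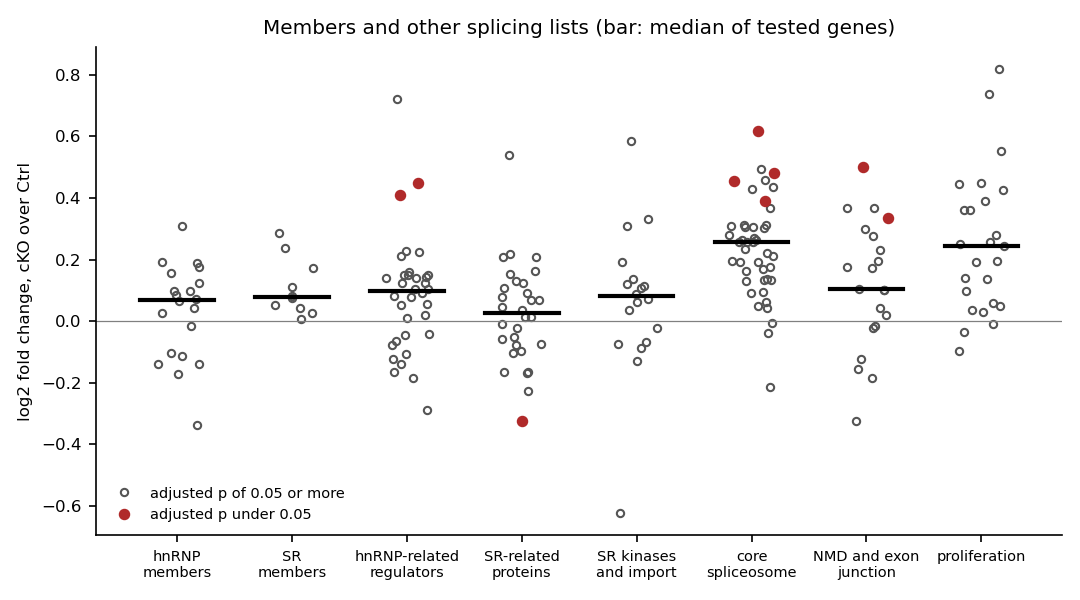
Log2 fold change of cKO over Ctrl on log2(value + 1) for tested genes of both families and 6 other lists, filled red where the limma adjusted p was under 0.05, with the median of each group as a bar. The families centre on 0.07 and 0.08 with no filled point, and core spliceosome genes centre on 0.26 with 4.

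Gene values cannot show which transcripts make up a level. GENCODE M21 annotates a transcript subject to nonsense-mediated decay in 19 of 31 members (61.3%; 27.7% of tested protein-coding genes), and one with a retained intron in 22 (71.0%; 57.4%). The 19 members with such a decay transcript, all tested, had a median log2 fold change of 0.05 and the other 11 tested members one of 0.10. The 7 members with a TG run, shown earlier for 4, had a median of 0.07 and went from -0.17 for Hnrnpr to 0.16 for Hnrnph2. The 23 tested members without one had a median of 0.08 and went from -0.34 to 0.31. The ranges with and without either feature overlapped, and isoform use within a gene was not analysed here.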

How the data were processed

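The groups follow the sample titles. Per the submitters' processing notes HISAT2 2.0.5, featureCounts 1.5.0-p3 and CASAVA were used, without their roles; the build and the use of strand are not stated in the sources used here, and all 31 members have GENCODE M21 (GRCm38) coordinates. The table deposited by the authors holds a normalized signal per gene and library, called normalized counts here, which is reads divided by 1 factor per library. Whole reads were recovered for 100% of values (tolerance 0.0001). It also holds the authors' log2 fold change and p-value per gene, with 55 genes lacking a p-value, from a test that is not named.

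Genes with a mean of at least 10 were tested with limma 3.58.1 (trend and robust, two-sided) on log2(value + 1) with group as the only term, Benjamini-Hochberg adjusted over 16536 genes, threshold 0.05. The added 1 understates changes of low genes. The test for counts in the plan did not apply to normalized values, so edgeR 4.0.16, DESeq2 1.42.0 and limma-voom were run on recovered reads as alternatives, among 20 in all. The main limma fit, edgeR, DESeq2 and limma-voom were also run on simulated data, and the other alternatives were not. The limma p-values set the group difference against the spread between these mice within groups, moderated over all tested genes. Members and lists were chosen with earlier results of these data known. The naming rule gave values per library for members without group overlap and for the 2 highest of each family, and up to 4 called genes per list; Hnrnpa1, Hnrnpr, Srsf9, Srsf1 and Hnrnph2 were added after their values were seen. Fits ran in R 4.3.3, and tables and plots were made in Python 3.11.15 with pandas 2.3.3 and matplotlib 3.10.9.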

Additional observations from a re-analysis of the deposited data

Results flagged for a closer look

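A library stood far from the other 3 of its group, by Dixon's 95% critical value for 4 values, in 3 of 62 member groups examined, and chance flags about 1 group in 20. Hnrnpu had 524 normalized counts in Ctrl 1, against 305, 311 and 323 in Ctrl 2 to 4, a gap of 0.917 of the range. Srsf1 had 199.9 in cKO 2, against 319, 313 and 303 in the other cKO libraries (0.864). Srsf2 had 4911 in cKO 2, against 6402, 6306 and 6469.8 (0.895). The library cKO 2 is also the one in which 16 of 30 members were lowest.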

How the results depend on the processing

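Of 600 member values (30 members under 20 alternatives), 581 kept direction and side of the threshold, 17 in 9 members reversed and 2 passed the threshold. Members had 0 calls under the 12 alternatives with all libraries, and 0 to 2 higher and 0 lower with 1 library left out. The 2, Hnrnpa1 and Hnrnpab, came without cKO 2. With 1 library left out, values went from -0.034 to 0.19 for Hnrnpa2b1 (0.04 with all libraries), -0.038 to 0.11 for Srsf5 (0.03), -0.00252 to 0.084 for Hnrnpl (0.03), -0.0214 to 0.21 for Srsf7 (0.08), -0.000880 to 0.19 for Srsf3 (0.07), -0.0584 to 0.020 for Hnrnpul1 (-0.02), -0.20 to 0.15 for Hnrnpa3 (-0.10), -0.026 to 0.063 for Srsf4 (0.01) and -0.022 to 0.20 for Srsf1 (0.04). Hnrnpul1 was at 0.066 under library-total scaling.

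Over all genes DESeq2 called 1509 higher, against 935, and leaving out 1 library gave 376 to 1350 higher and 390.0 to 1382 lower, against 1004. With 1 library left out, calls higher ranged from 1 to 4 for hnRNP-related regulators, 0 to 1 for kinases and import (lower 0 to 1), 1 to 20 for the core spliceosome, 0 to 6 for nonsense-mediated decay and 0 to 6 for proliferation, and calls lower from 0 to 1 for SR-related proteins. SR-related proteins had 0 lower without a filter, under library-total scaling and with the replicate block. Kinases and import had 2 higher under library-total scaling and with DESeq2, the core spliceosome 8 and 7, and proliferation 2 with DESeq2 and 1 with protein-coding genes alone or the replicate block. Shares called higher among all tested genes were 5.65% in the main fit, 8.02% under library-total scaling and 9.13% with DESeq2. They were 6.88% with protein-coding genes alone, 4.96% with the replicate block and 2.27% to 8.16% with 1 library left out. The cause of these shifts was not tested.

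The replicate numbers were not taken to pair the mice, since not every same-numbered pair deviated together: the correlations were 0.318, -0.106, 0.123 and 0.323. Ctrl 1, 3 and 4 correlated best with the cKO library of their own number and Ctrl 2 with cKO 1, which is a hint from the data and not from the design. With the replicate number as a block, 821 genes were called higher and 924 lower, members had 0 calls and 1 unadjusted p under 0.05. Snrpa1 (adjusted p = 0.0702) and Srek1ip1 (0.0821) were no longer called, and Prpf4 (0.0377) and the proliferation gene Rrm2 (0.0374), named after their values were seen, were called higher.

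With 4 mice a group the median half-width of a member's 95% interval was 0.24 log2 units. Reads on genes ranged from 21517596 to 29992110 per library, and Srsf12, with 6 and 20 reads, was tested without the filter on low values alone (adjusted p = 0.236).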
